A study of Mus musculus with 8 samples.

Results

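Syndecans and glypicans are the families of cell surface proteoglycans that carry heparan sulfate, and the 4 syndecan genes (Sdc1 to Sdc4) and 6 glypican genes (Gpc1 to Gpc6) of the mouse were taken by name from the 24980 gene symbols of the deposited table. All 10 were listed, and 9 had enough counts to be tested. RNA of skeletal myogenic cells had been sequenced in 8 libraries, which the series describes as a pair of biological replicates for each of 4 groups. Freshly sorted teratoma-derived progenitors (TF) came from teratomas, the mixed-tissue tumors that implanted embryonic stem cells (ESCs) form. Teratoma-derived progenitors grown to passage 8 (TE) were their expanded counterpart. Satellite cells, the resident stem cells of adult muscle, were taken freshly isolated (SF) and after growth to the same passage (SE).

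Per the paper, its main line of work used E14-EGFP ESCs, implanted in irradiated and cardiotoxin-injured muscle of NSG-mdx4Cv mice, which lack dystrophin and are immunodeficient. The cells sorted from teratomas were EGFP+, which marks them as teratoma-derived, and CD31- CD45- α7-integrin+ VCAM-1+. The labels do not name the ESC line of these libraries, the strain or age of the satellite cell donors, or whether expanded cells were sorted again before RNA was taken. Both expanded groups shared gelatin-coated wells and 1 expansion medium. Because origin, host and possibly strain differ together, they cannot be told apart in any comparison of teratoma-derived with satellite cells.

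Syndecans are single-pass membrane proteins whose short cytoplasmic tails bind scaffold and cytoskeletal proteins, while glypicans are held in the outer leaflet of the membrane by a lipid anchor. Their heparan sulfate chains bind FGFs, HGF, Wnts and BMPs and present them to receptors, or keep them away. Sdc3 and Sdc4 are long-used surface markers of satellite cells, and Gpc3 is a fetal growth regulator that restrains Hedgehog signaling.

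Total estimated counts were between 11931000 and 21146600 per library, of which the 10 genes together took between 0.123% and 0.226%. Rn45s, the precursor of ribosomal RNA, accounted for 7.99% to 21.3% of counts. The myogenic label was checked with 8 markers fixed for that purpose. The satellite cell factor Pax7 was present in every library (between 1279 and 5211 normalized counts), as were the sort antigens Itga7 (between 2494 and 6278) and Vcam1 (between 639 and 6350.05). Pax7 was at most 1879 in expanded libraries and at least 3249 in fresh ones. Vcam1 had 4085 and 5511 in TF and 5019 and 6350.05 in SF, against 639 and 660 in TE and 1925 and 1130 in SE. Myod1, Cdh15 and Des were present in every library too. Myod1 had 675 and 986 in TF and between 5306 and 11660 in the other groups. Myf5 had 850 and 1448 in TF and 1382 and 1663 in SF, against 158 and 70.5 in TE and 81.7 and 128 in SE. Chrdl2 had 215 and 565 in TF and 4044 and 5246 in SF, against 0 in both TE libraries and 0 and 13.1 in SE. A normalized count is a count scaled to the mean effective library size of all 8 libraries, and 3 counts in a library, the most that a count of 0 allows, equal between 2.31 and 4.13 of these units. Markers of other cell types were also present in fresh libraries. The sum of 6 fibro-adipogenic markers was between 14395 and 16097 in TF and between 7969 and 13806 in SF, against 5.09 to 28.05 in TE and 123 to 129.5 in SE. The 6 endothelial markers summed to between 1138 and 3862 in TF and between 4473 and 5806 in SF, and to at most 36.2 in expanded libraries. The sum of 8 differentiated muscle markers moved the other way, from 1600.4 to 2077 in SF and 8654 to 15611 in TF to between 115554 and 301982 in expanded libraries. Myh3 alone had between 69274.5 and 138636 in expanded libraries. Not every marker rose in each library. Myh1 had 1749 and 1076 in TF and 1670 and 2139 in TE, and Ckm had 140 in SE replicate 1 against 243 and 185 in SF. In bulk RNA, fewer cells of a type and less RNA per cell cannot be told apart.

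The members lie on 8 chromosomes, and glypicans form 2 neighboring pairs. Positions are from GENCODE M21 on GRCm38, the build named in the submitters' notes. Gpc3 (chrX:52272426-52613950) and Gpc4 (chrX:52053021-52165252) lie on the minus strand of chromosome X with 107173 bases between them and no other protein-coding gene in that gap. Gpc5 (chr14:115092215-116525179) and Gpc6 (chr14:116925315-117976544) lie on the plus strand of chromosome 14, 400135 bases apart. Sdc4 (chr2:164424247-164443887) and Sdc3 (chr4:130792537-130826319) are on chromosomes 2 and 4. All 10 are protein-coding genes, and the counts cover whole genes without exon detail. Gpc3 overlaps A630012P03Rik and Gpc1 overlaps Ankmy1 on the opposite strand, and reads of such partners cannot be told apart where strand was not used in counting, which the sources used here do not state. Sdc4 and Gpc6 had fractional counts, so part of their reads was divided between transcripts, and the other genes involved were not identified here.

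Promoter windows of RefSeq (GRCm38.p6) were given for 7 of the 10 members. The 250 bases before the RefSeq start are shown for Gpc3 and Sdc4, which differed most between groups, and for Sdc3, whose change with culture ran in opposite directions in the 2 origins. Capitals mark GC boxes, GGGCGG or its reverse complement, which Sp-family factors bind. The windows are chrX:52613975-52614224 (minus strand) for Gpc3, chr2:164443189-164443438 (minus strand) for Sdc4 and chr4:130792287-130792536 (plus strand) for Sdc3, and each is written 5′ to 3′ on the strand of its gene. The Sdc4 window lies inside the GENCODE span given above, which begins further upstream at 164443887, so the annotations differ in the start of this gene.
Gpc3: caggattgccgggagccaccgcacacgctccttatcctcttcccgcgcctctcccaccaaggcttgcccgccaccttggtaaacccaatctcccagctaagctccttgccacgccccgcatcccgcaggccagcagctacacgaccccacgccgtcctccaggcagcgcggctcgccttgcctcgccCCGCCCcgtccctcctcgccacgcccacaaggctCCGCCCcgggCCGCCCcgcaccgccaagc
Sdc4: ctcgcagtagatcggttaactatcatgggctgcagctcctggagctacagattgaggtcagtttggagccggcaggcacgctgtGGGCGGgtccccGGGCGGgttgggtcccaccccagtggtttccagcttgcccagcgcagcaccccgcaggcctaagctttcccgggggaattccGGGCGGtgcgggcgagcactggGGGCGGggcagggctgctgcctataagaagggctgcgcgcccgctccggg
Sdc3: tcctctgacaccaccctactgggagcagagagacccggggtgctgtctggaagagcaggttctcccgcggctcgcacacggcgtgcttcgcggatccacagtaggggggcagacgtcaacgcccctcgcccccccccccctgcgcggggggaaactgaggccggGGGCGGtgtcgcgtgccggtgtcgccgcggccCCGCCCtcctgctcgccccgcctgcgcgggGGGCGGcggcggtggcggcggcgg
Gpc3 held 3 GC boxes, Sdc4 held 4 and Sdc3 held 3, and 32.7% of the 32851 RefSeq windows of that length held at least 1. The windows of Sdc1 and Gpc2 held 3 each and those of Gpc4 and Gpc5 held 1 each, so GC boxes were not particular to the printed windows. None of the 3 printed windows held an E-box (CANNTG, present in 66.2% of windows), an AP-1 site (TGANTCA, 6.75%) or a TATA box (TATAAA, 12.4%), with both strands searched. None held a TEAD site (GGAATG, 12.6%) either. The Gpc3 window held 1 CCAAT box (CCAAT, 33.8%), and the Sdc4 and Sdc3 windows held none. The Gpc3, Sdc4 and Sdc3 windows were 71.6%, 68% and 76.4% G and C, against a median of 52.4% over all windows. These matches describe the windows only.

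**Figure D1:**
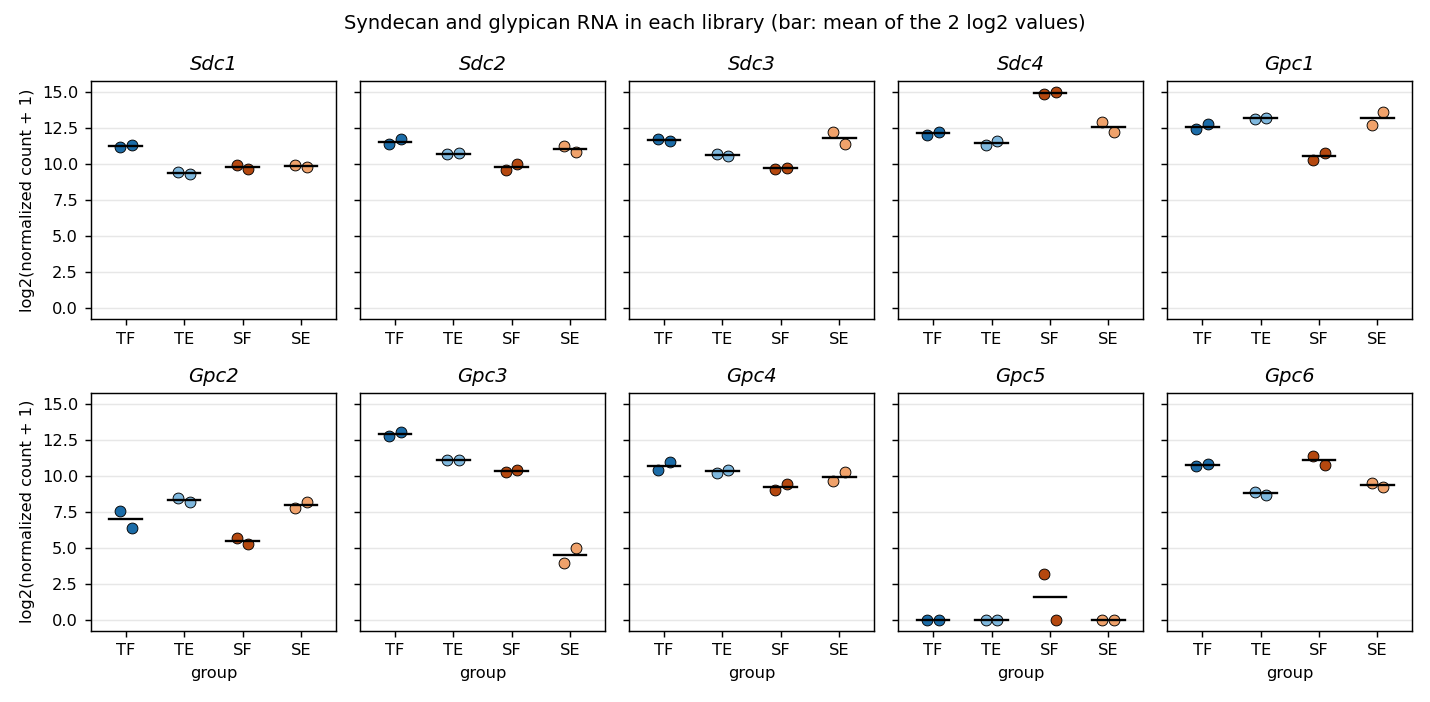
Level of each syndecan and glypican in each library, as log2(normalized count + 1), with 1 point per library and a bar at the mean of the 2 log2 values of a group. Sdc4 stands highest in SF, Gpc3 falls from 7075 and 8213 normalized counts in TF to at most 30.9 in SE, and Gpc5 is at 0 outside 1 SF library.

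The first question was how far the members differ between the origins when cells are fresh. In TF versus SF, 7 of the 9 tested members were higher and 1 was lower (by edgeR's quasi-likelihood fit, a call here and throughout being an adjusted p below 0.05 with a log2 fold change beyond 0.32 either way). Over all 17582 tested genes the background was 24.2% called, 15.1% higher and 9.13% lower. The median log2 fold change was 1.63 over the members and 0.08 over all genes. The fresh groups also differed in markers. The 8 differentiated muscle markers summed to 8654 to 15611 in TF and 1600.4 to 2077 in SF, the 6 chondrocyte markers to 3208 to 8251 and 872 to 901, the 6 haematopoietic markers to 571 to 3858 and 298 to 357, and the 6 Schwann cell markers to 136 to 197 and 978 to 1137. The 6 endothelial markers summed to 1138 to 3862 in TF and 4473 to 5806 in SF. The 6 pericyte and smooth muscle markers summed to 16946 to 17394 and 14750 to 16118, and single markers went both ways. Rgs5 had 1941 and 1496 in TF and 5117 and 4828 in SF, and Myh11 had 3144 and 2037 against 6160 and 5291. Pdgfrb had 4396 and 4766 in TF and 1363 and 1836 in SF, and Acta2 had 7287 and 8135 against 3126 and 2512. Comp ran against the chondrocyte sum, with 370 and 251 in TF and 647 and 815 in SF. None of these markers was at 0 in both libraries of a fresh group, and their part in the member differences was not tested. Median-ratio scaling moved the median of all genes by -0.16 and the split of all calls from 2655 higher and 1606 lower to 2110 and 1943, and no member changed direction.

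Sdc4, which cooperates with integrins at focal adhesions and in FGF signaling, had 29260.5 and 33013 normalized counts in SF against 4128 and 4867 in TF. It had 2509 and 3049.6 in TE and 7632 and 4767 in SE. The SF libraries lay far above the other 6, which spanned 2509 to 7632. In TF it was 6.92-fold lower than in SF (log2 fold change -2.79, standard error 0.27, edgeR adjusted p = 0.000215).

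The other 3 syndecans were higher in TF. Sdc1, best known from epithelia and plasma cells, had 2282 and 2516 normalized counts in TF and between 643 and 1004 in the other 6 libraries. Sdc2, a syndecan of mesenchymal cells, had 2739.9 and 3347 in TF against 767 and 1036 in SF. Sdc3, which marks satellite cells together with Sdc4, had 3484 and 3097 in TF against 821 and 844 in SF. In none of these 3 genes did the fresh groups overlap, and their log2 fold changes were 1.42, 1.76 and 1.98 (edgeR adjusted p between 0.000906 and 0.00101). With 2 libraries a group, non-overlap is common, and it held for 64.8% of all tested genes in TF versus SF and 72.4% in SE versus SF. The pair of satellite cell markers stood in opposite order in the fresh groups, Sdc4 being higher in SF and Sdc3 higher in TF.

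Among glypicans, Gpc3 differed most, with 7075 and 8213 normalized counts in TF against 1211 and 1374 in SF, a 5.91-fold difference (log2 2.56, standard error 0.26). Gpc1, a broadly expressed glypican that binds FGF2 and is found in muscle, had 5518 and 6949 against 1269.5 and 1741. Gpc4, a glypican of the same subfamily, had 1379.6 and 2029 against 505 and 701. The 3 genes did not overlap between TF and SF (edgeR adjusted p = 0.00025, 0.00166 and 0.00588).

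Gpc2, a glypican of developing neurons, had 187 and 83.5 normalized counts in TF against 49.9 and 37.4 in SF. Its call (edgeR adjusted p = 0.0368) was lost without TF replicate 1, where the log2 fold change went from 1.63 to 0.94, and in 9 other alternatives. Gpc6, a glypican of mesenchyme needed for long bone growth, had 1669 and 1773 in TF and 2642 and 1752 in SF. These groups overlapped, and the difference of -0.35 did not pass (95% interval -0.87 to 0.16).

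Gpc5 was close to absent. Its 7 counts lay in SF replicate 1, and the other 7 libraries held 0, so it was left out by the filter on low counts. At this depth no difference between groups was detectable.

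The next comparison set satellite cells grown to passage 8 against fresh ones. In SE versus SF, 4 members rose, 3 fell and 2 did not pass, against a background of 40.7% called among all genes (20.9% higher and 19.8% lower). The median log2 fold change was 0.74 over the members and -0.23 over all genes, which median-ratio scaling moved by a further -0.19.

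Gpc3 had the largest change of any member, from 1211 and 1374 normalized counts in SF to 14.7 and 30.9 in SE (19 and 33 deposited counts). It fell by 5.85 on the log2 scale, a 57.5-fold loss (standard error 0.32, edgeR adjusted p = 2.79e-06). Gpc6 fell 3.37-fold, to 717 and 586 (log2 -1.75). Sdc4 fell 5.02-fold, to 7632 and 4767 (log2 -2.33, standard error 0.26, edgeR adjusted p = 0.000122).

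Gpc1 rose 6.50-fold in satellite cells, to 6825 and 12758 normalized counts (log2 2.70, standard error 0.31). Gpc2 rose 5.72-fold, to 211 and 289. Sdc3 rose 4.42-fold, to 4703 and 2657, and Sdc2 rose 2.39-fold, to 2486 and 1826. The SE replicates were nearly 2-fold apart in Gpc1 and Sdc3 and in opposite order, yet both stayed clear of SF. The 8 differentiated muscle markers summed to 140280 in SE replicate 1 and 301982 in replicate 2, and their part in this spread was not tested.

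Sdc1 stayed near its level, at 985 and 804 in SF and 1004 and 896 in SE. Its log2 fold change of 0.09 (95% interval -0.34 to 0.51) turned to -0.11 under median-ratio scaling. Gpc4 had 783 and 1229.6 in SE, above both SF libraries, but its change of 0.74 did not pass (95% interval 0.09 to 1.38, edgeR adjusted p = 0.0652). With the replicate number as a block its adjusted p was 0.0203.

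In teratoma-derived cells the same comparison gave another picture. In TE versus TF, 5 members fell (Sdc1, Sdc2, Sdc3, Gpc3 and Gpc6), against a background of 16.2% called lower and 9.86% higher (26.1% in all). No member passed as higher with edgeR or DESeq2 fitted to all 8 libraries, and 1, Gpc2, was higher at an unadjusted p under 0.05. Other fits called Gpc1 and Gpc2 higher, as given with their values. The median log2 fold change was -0.84 over the members and -0.18 over all genes.

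Gpc6 fell 3.93-fold, from 1669 and 1773 normalized counts in TF to 467 and 408 in TE (log2 -1.98, standard error 0.24, edgeR adjusted p = 0.000311). Sdc1 fell 3.59-fold, to 694 and 643 (log2 -1.84). Gpc3 fell 3.48-fold, but only to 2168 and 2232 (log2 -1.80, standard error 0.25, edgeR adjusted p = 0.00068). The TE level of Gpc3 was above that of fresh satellite cells (log2 fold change of TE over SF 0.77, adjusted p = 0.0275, with a background of 46.6% called in that pair).

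Sdc3 had 1661 and 1506 normalized counts in TE and Sdc2 had 1646 and 1752, which was 2.08-fold and 1.79-fold below TF (log2 -1.06 and -0.84). Both calls were lost when either TE library was left out, with adjusted p between 0.0644 and 0.104 for Sdc3 and between 0.126 and 0.173 for Sdc2. Sdc3 was also lost without TF replicate 1 (adjusted p = 0.0689), and Sdc2 without TF replicate 2 (0.177) and in edgeR's test against the fold threshold (0.0511). Sdc4 stood 0.69 lower on the log2 scale without passing (log2 -0.69, 95% interval -1.26 to -0.13, edgeR adjusted p = 0.0702), although DESeq2 over all 4 groups called it. It was also called lower by edgeR without the low-count filter (adjusted p = 0.0283). With only TE and TF in the fit, edgeR (adjusted p = 0.00642) and DESeq2 called it too. Over all alternatives its log2 fold change lay between -0.82 and -0.53. Gpc1 had 8860.0 and 9549 in TE, above TF (log2 0.56, 95% interval -0.10 to 1.22), and Gpc4 had 1169.7 and 1359 (log2 -0.43). Neither passed. With only TE and TF in the fit, Gpc1 was called higher by edgeR (log2 0.54, adjusted p = 0.015) and by DESeq2 (log2 0.50). Gpc2, at 344 and 287 in TE against 187 and 83.5 in TF (log2 1.22, edgeR adjusted p = 0.0822), was called higher by edgeR without TF replicate 1 (log2 1.94, adjusted p = 0.0341) and by DESeq2 on TE and TF alone (log2 1.16).

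The falls of Gpc3, Gpc6 and Sdc1 ran beside lower sums of fibro-adipogenic and endothelial markers (given above) and of chondrocyte markers. The 6 chondrocyte markers summed to between 3208 and 8251 in TF and at most 23.1 in TE, with Acan, Col9a1 and Cnmd at 0 in both expanded groups. The part of those cells in the falls was not tested. Gpc6 and the summed fibro-adipogenic markers were both lower in the expanded groups. TE had 2168 and 2232 normalized counts of Gpc3 with these markers at 5.09 to 28.05, of which Dpt, Clec3b and Smoc2 were at 0 in both libraries. SE had 14.7 and 30.9 of Gpc3 with these markers at 123 to 129.5. The marker sums separated fresh from expanded libraries, and their relation to Gpc3 and Gpc6 was not tested.

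**Figure D2:**
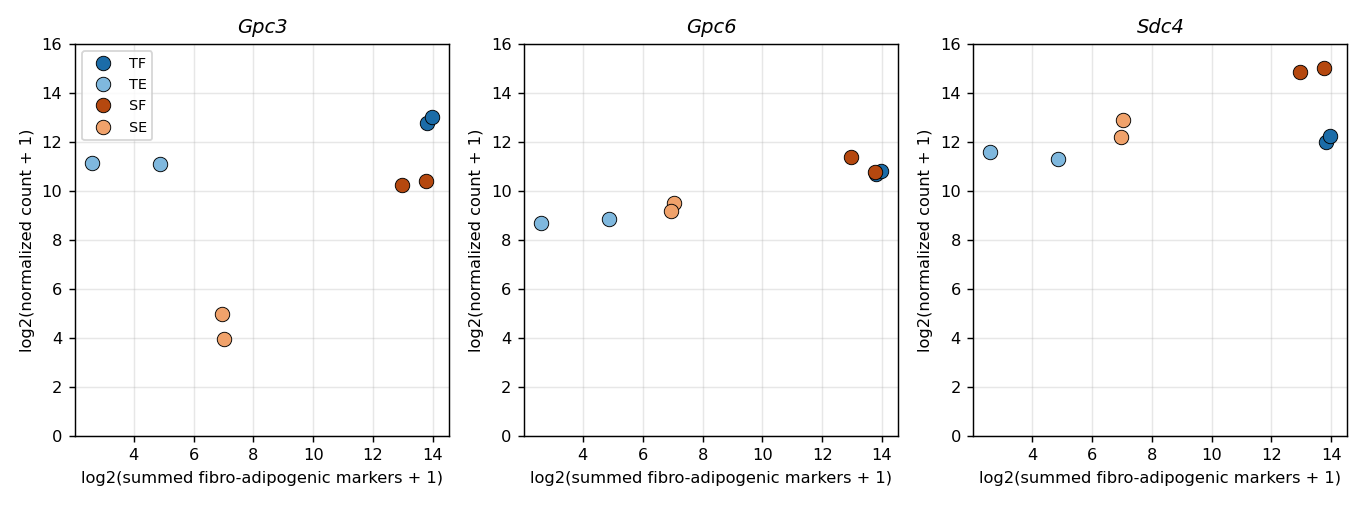
Level of Gpc3, Gpc6 and Sdc4 against the summed level of 6 fibro-adipogenic markers, each point being 1 library on log2(normalized count + 1) axes. Gpc6 lies lower in the 4 libraries with low marker sums. Gpc3 lies near 2200 normalized counts in TE, where marker sums are lowest, and at 30.9 or less in SE. The relation was not tested.

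Whether the change from fresh to expanded cells differed between the 2 origins was tested as the interaction. It passed for 6 of the 9 members, with 2 positive and 4 negative differences (teratoma-derived minus satellite), against 14.3% of all genes (4.7% higher and 9.62% lower). Its median over all genes was -0.18, which median-ratio scaling moved by 0.14, and none of the 6 changed direction.

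Sdc2 and Sdc3 passed in both origins in opposite directions, falling in teratoma-derived and rising in satellite cells. The difference between the changes was -3.20 for Sdc3 (standard error 0.37, edgeR adjusted p = 0.000744) and -2.10 for Sdc2. For Sdc1 it was -1.93 and for Gpc1 -2.14, where 1 origin changed and the other did not pass. For Gpc3 it was 4.05 (standard error 0.39, edgeR adjusted p = 0.00032), because the gene fell in both origins but much further in satellite cells. For Sdc4 it was 1.63, and its adjusted p of 0.0151 rose to 0.0565 without TF replicate 1 and 0.075 without TE replicate 2. The groups did not start level. Sdc1, Sdc2, Sdc3, Gpc1 and Gpc3 began lower in SF than in TF and Sdc4 began higher, as given above. Gpc6, which fell in both origins, had a difference of -0.22 (95% interval -0.95 to 0.51).

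**Figure D3:**
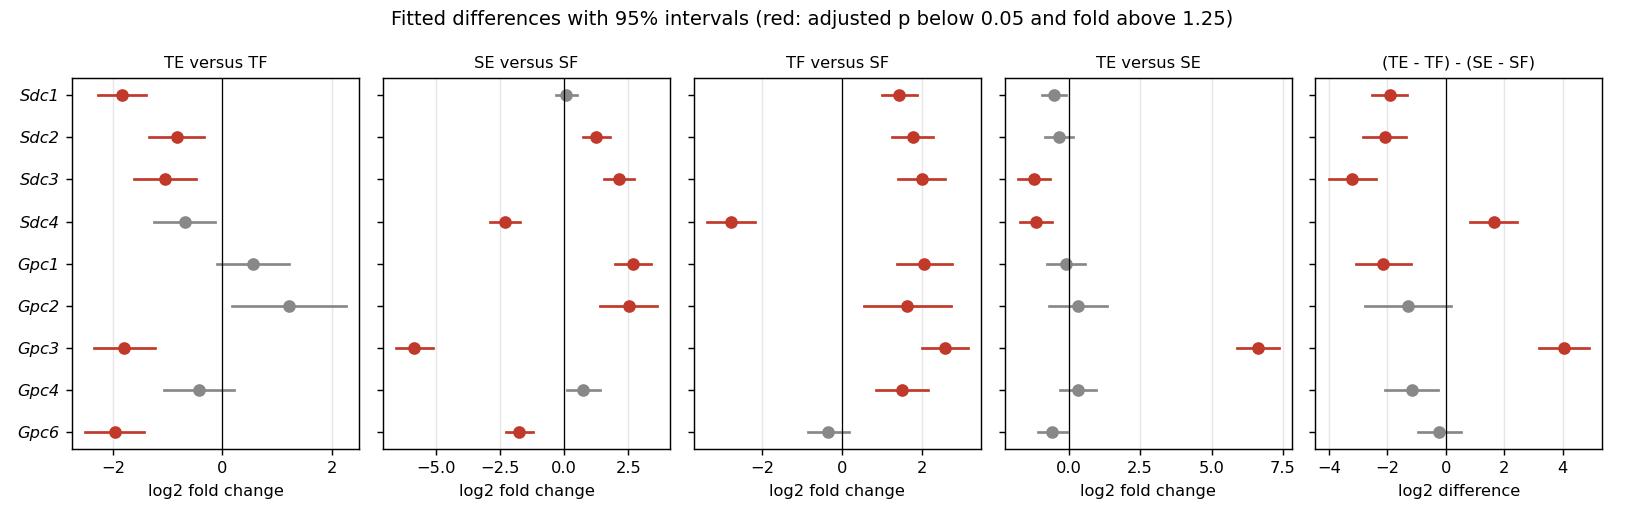
Fitted log2 fold change of each tested member in 4 comparisons and the interaction, with 95% intervals and red marking calls. The horizontal range differs between panels. Sdc2 and Sdc3 lie left of 0 in TE versus TF and right of 0 in SE versus SF, and Gpc3 stands alone on the right in TE versus SE.

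The origins were also compared after culture. In TE versus SE, 1 member was higher and 2 were lower, against a background of 7.21% called (3.15% higher and 4.07% lower), and the median log2 fold change was -0.34 over the members and near 0 over all genes. Gpc3 was 97.9-fold higher in TE (log2 6.61, standard error 0.33, edgeR adjusted p = 1.55e-05), with 2168 and 2232 normalized counts against 14.7 and 30.9. Leaving out any 1 library kept this log2 fold change between 6.16 and 7.22.

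Sdc3 was 2.32-fold and Sdc4 2.23-fold lower in TE (log2 -1.22 and -1.16, edgeR adjusted p = 0.0199 and 0.0243). Without SE replicate 1, which held the higher level of both genes, they were -0.74 and -0.77 and did not pass. Both calls were also lost with either TE library left out and with only TE and SE in the fit. Gpc1, at 6825 and 12758 in SE, had a log2 fold change of -0.09 (95% interval -0.75 to 0.57). Gpc4, next to Gpc3 on chromosome X, had a log2 fold change of 0.33 (95% interval -0.31 to 0.97) where Gpc3 had 6.61, so the large difference was not shared by both genes of the pair.

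The order of groups differed by gene. For Gpc3 it was TF, TE, SF and SE, with each neighboring pair past the threshold. For Sdc4 it was SF, SE, TF and TE, where SE and TF (log2 fold change of TF over SE -0.46, adjusted p = 0.213) and TF and TE did not differ past the threshold. Some other fits called Sdc4 between TF and TE, as given above. For Sdc3 it was SE, TF, TE and SF, with SE and TF not separated (-0.16, adjusted p = 0.681) and the other neighbors past it, the smaller of the 2 being TE over SF (0.93, adjusted p = 0.015, edgeR in each case). TF versus SE had 23.6% of all genes called.

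To compare genes with each other, normalized counts were divided by the length of the longest coding transcript in GENCODE M21. On this scale, per kb, Sdc4 made up between 94.5% and 94.9% of the summed syndecan level in SF. Its share was between 43.3% and 45.5% in TF, at most 55.3% in TE, and 59.2% and 61.2% in SE. It was the first-ranked member of all 10 in both SF libraries, at a mean of 12668 normalized counts per kb.

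The leading glypican changed with the group. In TF it was Gpc3, with 55.5% to 57.2% of the summed glypican level per kb. In TE it was Gpc1, with 55.7% to 56.7%, and Gpc3 still held 25.0% to 25.7%. In SE, Gpc1 held 73.5% to 80.1% and Gpc3 at most 0.365%. In SF no single glypican led in both libraries, with Gpc6 at 41.6% and 27.6% in replicates 1 and 2 and Gpc3 at most at 34.1%. The ratio of summed syndecans to summed glypicans per kb was 6.92 and 7.78 in the SF libraries and between 0.536 and 0.695 in the 4 teratoma-derived libraries. In SE it was 2.28 and 0.859, so these replicates fell on either side of equal levels. Shares and ratios are descriptions of 2 libraries a group and were not tested.

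**Figure D4:**
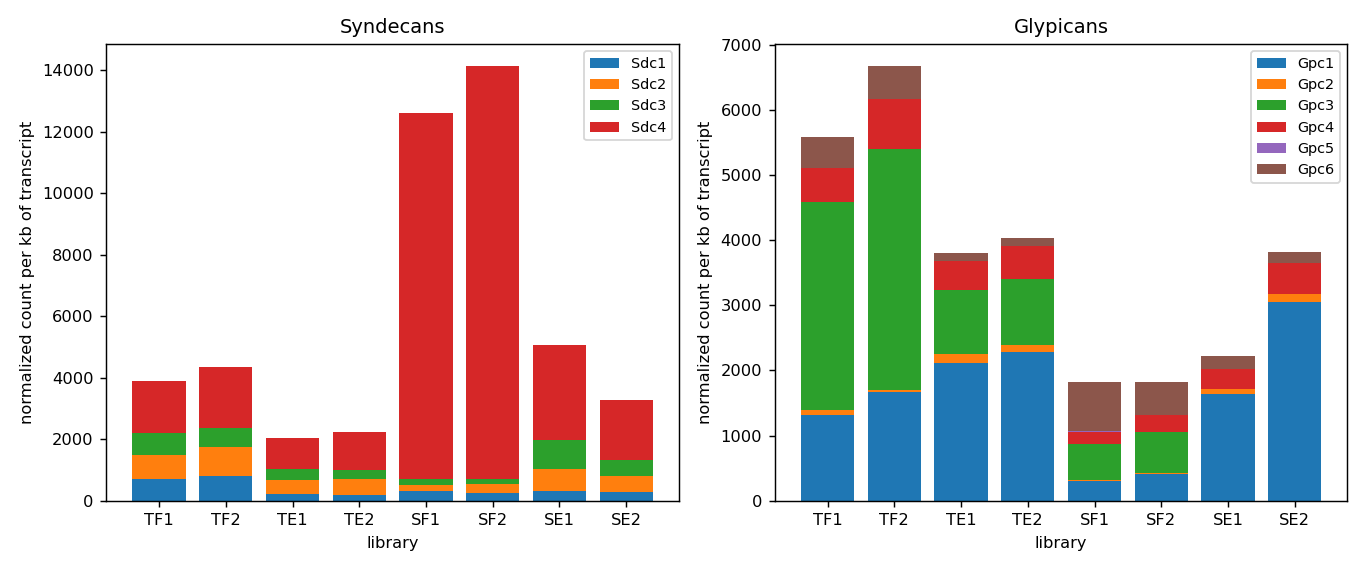
Stacked bars of normalized counts per kb of transcript for the syndecans and the glypicans in each library. Sdc4 fills most of the SF bars, Gpc3 is the largest glypican segment in TF, and Gpc1 is the largest in TE and SE.

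Lists of genes that build, modify or cut heparan sulfate were counted in the same way, and their counts are read against the share of all genes called. All 12 genes of chain initiation and polymerization were tested. In SE versus SF, 4 rose and 1 fell (median log2 0.53), 5 of 12 against 40.7% of all genes, so this count is at the background. In TF versus SF, 5 were higher (median 0.70) and none lower with edgeR, with 1 lower by DESeq2 and 1 at an unadjusted p under 0.05, against 24.2% of all genes. The xylosyltransferase gene Xylt2, which starts the chain on the core protein, had 184 and 98.0 normalized counts in SF and 470 and 429 in SE (log2 1.67). Ext2, a subunit of the chain polymerase, had 609 and 536 in SF and 1690.4 and 1495 in TF (log2 1.48). In TE versus TF, 1 rose and 3 fell (median -0.32), 4 of 12 against 26.1%. Ext1, the other polymerase subunit, had 1992 and 2026 in TF and 904 and 918 in TE (log2 -1.14). The second xylosyltransferase gene, Xylt1, had 212 and 92.6 in TF and 0 in both TE libraries. By group means it was at least 60.6-fold lower, with TE set to 3 counts per library. Xylt1 also fell in satellite cells, from 133 and 118 in SF to 10.8 and 0 in SE (log2 -4.47, edgeR adjusted p = 0.0236). In TE versus SE no gene of this list passed with edgeR or DESeq2, and 3 were lower at an unadjusted p under 0.05. Since 7.21% of all genes were called in that pair, a count of none is near the background. It does not show that these levels were alike.

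Of the 18 chain modification genes 15 were tested. In SE versus SF, 3 rose and 7 fell, and in TE versus TF, 1 rose and 5 fell (median log2 -0.22 and -0.65), which is 10 of 15 and 6 of 15 against 40.7% and 26.1% of all genes. The endosulfatase gene Sulf1, whose product trims 6-O-sulfate from chains outside the cell, had 5909 and 6957 normalized counts in TF and 407 and 423 in TE (log2 -3.95, edgeR adjusted p = 4.96e-06). Its paralog Sulf2 was at 2419 and 2133 in TF, 639 and 632 in TE, 515 and 331 in SF and 2675 and 1576 in SE. Thus Sulf2 fell with culture in teratoma-derived cells and rose in satellite cells, with a difference of -4.17 (edgeR adjusted p = 0.000399 for the interaction). Glce, the epimerase that converts glucuronic to iduronic acid, stood highest in TE, at 3157 and 2948 against 1028 and 1306 in SE (log2 1.39, edgeR adjusted p = 0.00365). Hs6st3, a 6-O-sulfotransferase, had 345 and 316 in SF and 0 in both SE libraries, at least 129-fold lower by group means. It fell in teratoma-derived cells too, from 15.1 and 22.2 in TF to 0 in both TE libraries (edgeR adjusted p = 0.00391).

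Genes of shedding and degradation (10 tested) had 5 lower and none higher in TE versus TF with edgeR, none being higher at an unadjusted p under 0.05 or with DESeq2, against 26.1% of all genes. The 5 were Mmp2, Mmp9, Mmp14, Furin and Notum. The gelatinase gene Mmp9 had 367 and 63.9 normalized counts in TF and 0 in both TE libraries. The 6 haematopoietic markers summed to between 571 and 3858 in TF and between 12.4 and 28.01 in TE, with Ptprc, Adgre1, Tyrobp and C1qa at 0, and their part in this was not tested. Mmp2, the other gelatinase gene, had 9433 and 9358 normalized counts in TF, 484 and 353 in TE, 4902 and 6796 in SF and 2248 and 2033 in SE. It was lower in TE than in SE (log2 -2.35, edgeR adjusted p = 0.000564). Mmp14, which cleaves syndecans at the membrane, was higher in TF than in SF (log2 2.22), and 1 further gene, Adam10, was higher with it. The share of all genes called in that pair was 24.2%. In SE versus SF, 1 gene rose and 3 fell of the 10 tested, against 40.7% of all genes, so this count is at the background.

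Other heparan sulfate proteoglycans (10 tested) had 7 lower in TE versus TF, with none higher by edgeR, by DESeq2 or at an unadjusted p under 0.05, and 2 higher and 4 lower in SE versus SF, which is 7 of 10 against 26.1% and 6 of 10 against 40.7% of all genes. Tgfbr3, the betaglycan co-receptor for TGF-β, had 9194 and 10995 normalized counts in SF, 2779.8 and 3151 in TF, at most 20.8 in SE and at most 0.849 in TE. Col18a1, a basement membrane collagen that carries heparan sulfate, had a mean of 16764 in SE against 1574 and 1819 in SF, and its interaction was -2.74 (edgeR adjusted p = 0.00214). Agrn, which organizes the neuromuscular synapse, had 3367 and 2873 in TF against 868 and 761 in SF (log2 1.94).

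**Figure D5:**
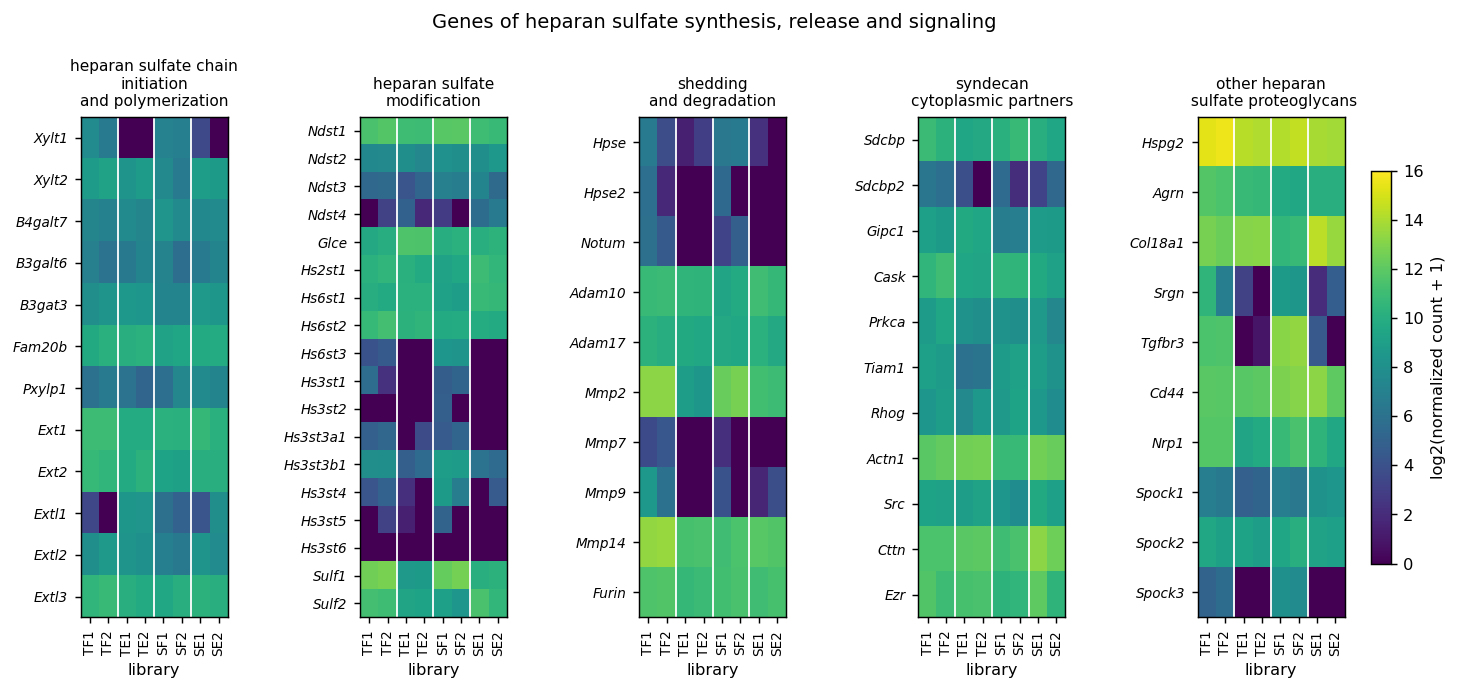
Heat maps of log2(normalized count + 1) for 5 lists of genes that build, modify, release, bind or also carry heparan sulfate, with 1 column per library and white lines between groups. Sulf1 and Mmp2 are brightest in the fresh groups, Glce is brightest in TE, and Tgfbr3 is at or near 0 in the expanded libraries other than SE replicate 1, where it has 20.8 normalized counts.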

How the data were processed

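Mouse skeletal myogenic cells of 4 groups, 2 libraries each, were profiled with a stranded total RNA kit for low input. The authors deposited 1 table of estimated counts per gene symbol, not normalized. The submitters' processing notes name CASAVA, kallisto 0.44.0 and the builds GRCm38 and mm10, and the annotation is not given in the sources used here.

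Counts were rounded, filtered with edgeR's filterByExpr (17582 of 24980 genes kept) and TMM-scaled. A single quasi-likelihood model of the 4 groups (glmQLFit and glmQLFTest of edgeR) gave the tests, with Benjamini-Hochberg adjustment over all tested genes. Calls needed an adjusted p below 0.05 and a log2 fold change beyond 0.32 either way, the study's thresholds. Standard errors were the log2 fold change divided by the square root of F, and 95% intervals used the fit's degrees of freedom. Log2 plots used a pseudocount of 1. The code was tested on simulated data. Totals were between 11931000 and 21146600 counts, and limits from 3 counts cover counting error only. The labels call the replicates biological without naming their source, so p-values measure the spread between these libraries. No 2 replicates were identical. The members and gene lists were chosen with earlier results of these data known. Named list genes were up to 3 per list and comparison with the largest change among those called, fewer being printed here, and Adam10 and Mmp14 were the only ones of their list called in TF versus SF. Pattern likeness was set for the 3 members with the widest range. Alternatives were median-ratio size factors, no filter, DESeq2, only the groups compared, the replicate number as block, glmTreat at the study's fold, Rn45s removed and each library left out. DESeq2 with only the groups compared was added after seeing the data. Software was edgeR 4.0.16, limma 3.58.1 and DESeq2 1.42.0 under R 4.3.3.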

Additional observations from a re-analysis of the deposited data

Results flagged for a closer look

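For 6 members the change from fresh to expanded cells differed between the 2 origins by the interaction test of edgeR's quasi-likelihood fit. The value given is the log2 change in teratoma-derived cells minus that in satellite cells. The difference was -1.93 for Sdc1, -2.10 for Sdc2, -3.20 for Sdc3 and -2.14 for Gpc1, and it was 1.63 for Sdc4 and 4.05 for Gpc3. The adjusted p-values were 0.00194, 0.00301, 0.000744, 0.00938, 0.0151 and 0.00032 in that order. Sums of differentiated muscle markers rose in both origins over the same comparison. Sums of fibro-adipogenic, endothelial and chondrocyte markers fell in both. The part of all these markers in the differences was not tested. The differences of Gpc2 (-1.29, adjusted p = 0.232), Gpc4 (-1.17, 0.086) and Gpc6 (-0.22, 0.734) did not pass the same edgeR test, which does not show that their changes were alike.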

How the results depend on the processing

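With 2 libraries a group, small changes are easily missed. The number of members called in TE versus TF, 5, was between 3 and 6 with 1 library left out and 8 with DESeq2 on only the groups compared. In TE versus SE it was 3, 1 with only the groups compared, and between 1 and 3 with 1 library left out, the lower number without either TE library or without SE replicate 1. The leave-one-out ranges were 7 to 8 in SE versus SF and in TF versus SF and 5 to 7 for the interaction. Over all genes, calls ranged over the alternatives from 2739 to 6787 in TE versus TF, 2639 to 5171 in TF versus SF, 653 to 2260 in TE versus SE and 1467 to 3646 for the interaction, against 4581, 4261, 1268 and 2517.

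Directions turned only where the change was small. Sdc1 in SE versus SF went from 0.09 to -0.11 with median-ratio factors, -0.11 with DESeq2 and -0.053 with Rn45s left out, and lay between -0.033 and 0.24 with 1 library left out. Gpc1 in TE versus SE lay between -0.46 and 0.43, and the Gpc6 interaction between -0.52 and 0.028, with 1 library left out. The cause was not tested.

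Deviations of same-numbered replicates correlated between -0.03 and 0.08 over the 6 pairs of groups, and nothing in the labels pairs them. With the replicate block, 5 members were called in TE versus TF, 8 in SE versus SF, 8 in TF versus SF, 3 in TE versus SE and 7 for the interaction, Gpc4 being added in SE versus SF (log2 0.72) and for the interaction (-1.13). The block changed no other call of a member.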

Other observations

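Of the syndecan cytoplasmic partners, a list of 11 genes that were all tested, 4 rose and 1 fell in SE versus SF and 1 rose and 3 fell in TE versus TF. These are 5 of 11 against 40.7% and 4 of 11 against 26.1% of all genes, near the background. Tiam1, a Rac activator that binds syndecan tails, had 527 and 464 normalized counts in TF, 64.3 and 70.5 in TE, 442 and 579 in SF and 483 and 301 in SE. It was thus low in TE alone among the 4 groups, with a log2 fold change of -2.54 over SE (edgeR adjusted p = 0.00205) and an interaction of -2.50. Gipc1, a scaffold for syndecan-4, rose in satellite cells from 102 and 116 to 449 and 417 (log2 1.99). Sdcbp, the syntenin gene, had 1894 and 1233 in TF and 690 and 793 in TE (log2 -1.08, edgeR adjusted p = 0.0253).

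The genes most like a member over the 8 libraries were ranked by Pearson's r of log2(normalized count + 1) among 12720 tested genes with a mean of at least 50. For Gpc3 they were C1qtnf7 (r = 0.995), Fxyd6 (0.985) and Ank2 (0.985). C1qtnf7 had group means of 364 in TF, 80.7 in TE, 65.9 in SF and 0 in SE. For Sdc4 they were Ttc19 (0.998), Gm32856 (0.989) and Ttpal (0.989), and Gm32856 had a mean of 7705 in SF against at most 1333 elsewhere. For Gpc2 they were Rbfa (0.994), Stradb (0.992) and Etfa (0.986). These are descriptions across 8 libraries in 4 groups, whose points share group and depth.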
